A study of Homo sapiens with 20 samples.

Results

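The comparison described here asks what the loss of silencer 1 adds in cells that already lack silencer 2. It sets the 2 double excision libraries (DKO) against the 2 silencer 2 excision libraries (S2KO), 4 of the 20 RNA-seq libraries of the series, chosen by their labels. All cells were K562, a human erythroleukemia line that makes embryonic and fetal globins. DKO cells had silencer 1 and silencer 2 cut out with CRISPR, and S2KO cells had silencer 2 cut out, so the loss of silencer 2 is common to both. The same step from silencer 1 present to silencer 1 gone was measured with silencer 2 in place, between silencer 1 excision cells (S1KO) and cells with an empty vector (EV), also 2 libraries each. The series' design text calls the 2 libraries of a group biological replicates, and the labels do not say whether an excised line is a single clone, how much DNA was removed or how many alleles carry the excision.

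Silencers are stretches of DNA that hold genes down, the counterpart of enhancers, and silencers that lie close together can act on a gene as a group. Many carry histone H3 trimethylated at lysine 27, the mark written by Polycomb repressive complex 2 through its subunit EZH2. Others bind REST, a zinc finger repressor that recruits corepressors to neuronal genes and keeps them silent outside neurons. The study's title joins the silencers to EZH2 and REST. The gene of interest is FGF18, a secreted fibroblast growth factor encoded in band 5q35.1.

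The libraries held 55913728 and 59444567 gene-level estimated counts in DKO and 79320794 and 76457904 in S2KO, and 81110324 to 98507880 in S1KO and EV. K562 markers were in place: HBG1, TFRC, GATA1 and TAL1 all exceeded 70 CPM (counts scaled to library size and composition) in every DKO, S2KO, S1KO and EV library, while MS4A1 had 0 counts in all 8 and CD14, CD3E, CD79A and MPO stayed at or below 0.302 CPM. Of the markers meant to be near 0, EPCAM had 67.2 to 92.2 CPM and LYZ 10.8 to 26.9 CPM over the DKO and S2KO libraries. There were 2 features that set libraries apart. The DKO libraries had mean fragment lengths of 209 and 213 bases, against 181 to 186 bases in the other 6, and they matched each other closely: the SD over genes of the log2 difference between replicates was 0.175 in DKO, 0.645 in S2KO, 0.446 in S1KO and 0.611 in EV. Replicate 2 of S2KO, S1KO and EV departed from replicate 1 in the same direction, with correlations of the deviations of 0.765 to 0.886 across 11996 genes.

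Of 21285 genes tested, 342 rose in DKO relative to S2KO (1.61%) and 289 fell (1.36%), together 2.96% (edgeR quasi-likelihood test, Benjamini-Hochberg adjusted p under 0.05), and 3499 had an unadjusted p under 0.05. The 2 groups' CPM did not overlap for all 631 called genes, while 50.9% of all tested genes were separated in that way. Among called genes 323 rises and 256 falls went beyond 1 log2 unit. With 2 libraries a group an exact permutation test cannot give a p under 0.333, so each call rests on edgeR's variance model. The count was sensitive to single libraries: 102 genes were called without DKO replicate 1, 101 without DKO replicate 2, 302 without S2KO replicate 1 and 269 without S2KO replicate 2. Giving replicate 2 of S2KO, S1KO and EV its own term, a fit chosen after seeing the data, called 3174 genes, 1696 up and 1478 down.

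The largest rise among the named genes was C5orf58, an uncharacterised open reading frame on 5q35.1 with 7 protein-coding genes between it and FGF18. C5orf58 had 16.4 and 16.96 CPM in DKO, against 0.0257 and 0.0394 CPM in S2KO. That is 959 and 1050 estimated counts in DKO and 2 and 3 in S2KO, a ratio of 513 with a 95% counting interval of 220 to 1583 (log2 8.93 ± 0.34 SE, edgeR adjusted p = 0.000609). S1KO also stood high, at 13.3 and 11.5 CPM, with EV at 0.202 and 0.251 CPM (log2 5.76 ± 0.28, adjusted p = 0.000274). Every library without silencer 1 was therefore above 11 CPM and every library with it below 0.3 CPM. The step was larger with silencer 2 gone (difference in log2 change 3.17 ± 0.41, adjusted p = 0.0231), and S2KO lay lower than EV. One transcript of 509 bases carried 80.2% and 81.3% of the C5orf58 counts in DKO, 100.0% of the few in S2KO, and 88.1% and 84.1% in S1KO. Exons of the gene overlap LCP2 on the opposite strand, and which of its transcripts hold them was not examined. The kit marks strand, but whether the quantification used strand was not checked.

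FGF18 had 16 and 16 estimated counts in DKO and 9 and 2 in S2KO, or 0.274 and 0.258 CPM against 0.116 and 0.0263 CPM. Both DKO libraries lay above both S2KO libraries, in a ratio of 3.72 (counting interval 1.83 to 8.17), but the test across libraries did not pass (log2 1.88 ± 1.25, edgeR adjusted p = 0.5004). In S1KO it had 6 and 1 counts and in EV 9 and 0 (log2 -0.61 ± 1.43, adjusted p = 0.915). Only 1 transcript, of 1986 bases, was matched to FGF18, so its counts could not be divided among transcripts.

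The sequences upstream of the 2 genes are shown because C5orf58 was called and FGF18, the gene of interest, was not. They are the 250 bases before each annotated start, from RefSeq on GRCh38.p14, both on the plus strand, with AGATAA on either strand in capitals (the motif of GATA factors, among them GATA1 of red cell precursors). C5orf58 is chr5:170232735-170232984 and FGF18 is chr5:171419397-171419646.
C5orf58: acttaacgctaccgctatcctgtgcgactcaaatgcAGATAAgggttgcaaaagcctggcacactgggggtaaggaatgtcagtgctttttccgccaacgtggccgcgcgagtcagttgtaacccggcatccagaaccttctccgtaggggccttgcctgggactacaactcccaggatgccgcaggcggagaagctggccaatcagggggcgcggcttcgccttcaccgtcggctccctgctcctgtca
FGF18: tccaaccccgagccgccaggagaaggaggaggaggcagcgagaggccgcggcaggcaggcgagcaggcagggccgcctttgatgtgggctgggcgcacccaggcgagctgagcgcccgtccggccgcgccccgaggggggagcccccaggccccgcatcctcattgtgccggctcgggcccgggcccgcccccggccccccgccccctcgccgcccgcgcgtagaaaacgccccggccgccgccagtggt
C5orf58 holds 1 AGATAA, starting 214 bases before the start site, and FGF18 holds none; 9.17% of 35116 promoter windows of that length hold one. Neither holds TTCAGCACC, the left part of the RE1 element that REST reads, which 0.288% of the windows hold. FGF18 has 31 CpG dinucleotides and C5orf58 17, with a median of 11 over all windows. A match describes letters in these windows, not a bound site.

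Few other genes of the region passed the test. In the list of 5q35.1 genes, 18 of 23 were tested and 2 passed, where 2.96% of all tested genes passed. Both rose: C5orf58 and STK10, a serine/threonine kinase of lymphoid cells. STK10 had 14.9 and 14.2 CPM in DKO and 5.28 and 7.82 in S2KO (log2 1.15 ± 0.22, edgeR adjusted p = 0.0496), and EV was at 13.95 and 13.5, so it was S2KO that stood low. Its call was lost without DKO replicate 1 (0.329), DKO replicate 2 (0.289) or S2KO replicate 1 (0.120), with the 2 groups alone (0.138) and with length-scaled counts (0.154). LCP2, a T cell signalling adaptor, had 16.6 and 13.4 CPM in DKO against 5.92 and 8.14 in S2KO (log2 1.09 ± 0.30, adjusted p = 0.131; 0.0252 with DESeq2). FBXW11, a ubiquitin ligase subunit, lay the other way, at 23.1 and 23.4 CPM in DKO and 39.8 and 50.5 in S2KO (log2 -0.96 ± 0.21, edgeR adjusted p = 0.0723). It was called with DESeq2 (adjusted p = 0.00603). NPM1, the abundant nucleolar histone chaperone beside FGF18, had 2362 and 2678 CPM in DKO and 2150 and 1537 in S2KO. RANBP17, the nearest tested gene before NPM1, had 0.787 and 0.953 CPM in DKO against 1.08 and 0.907 in S2KO. From 10 protein-coding genes before C5orf58 to 10 after FGF18, 21 of 29 genes were tested and again 2 were called. DOCK2, a guanine exchange factor of blood cells, was the nearest tested gene before C5orf58. It had 13.5 and 9.95 CPM in DKO and 9.69 and 22.2 in S2KO, which overlap, and 8.87 and 11.4 in S1KO and 123.2 and 159 in EV. The fall in S1KO passed the test (log2 -3.80 ± 0.43, edgeR adjusted p = 0.00677).

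**Figure D1:**
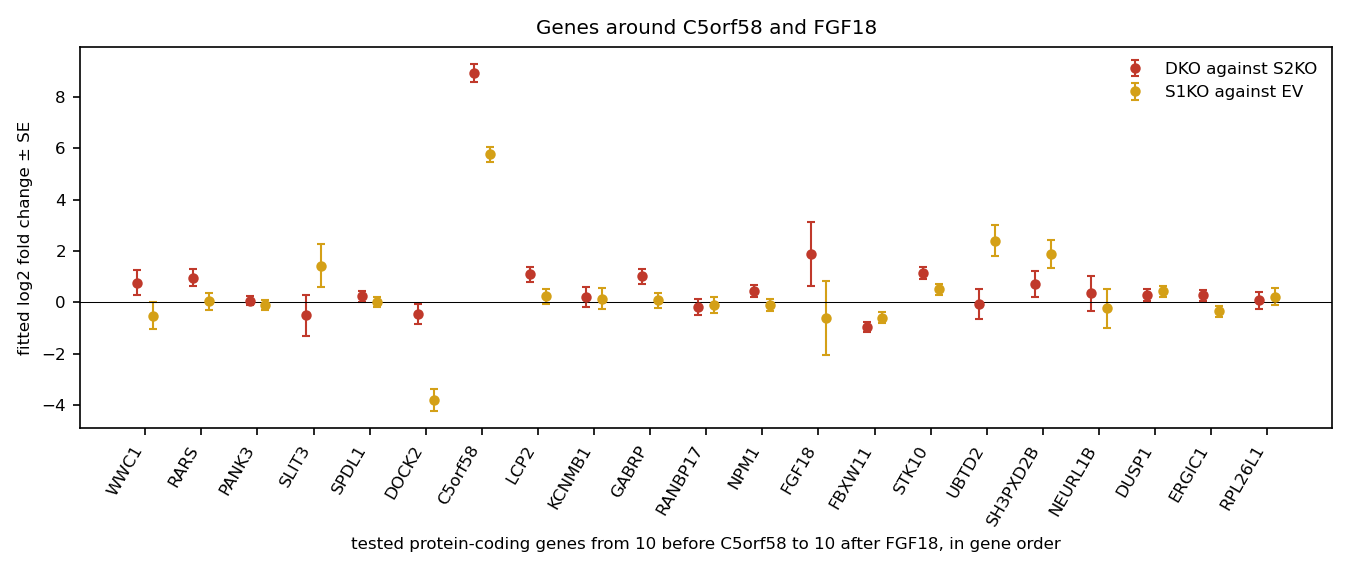
Fitted log2 fold change with its standard error for the 21 tested protein-coding genes around C5orf58 and FGF18, in gene order, for DKO against S2KO (red) and S1KO against EV (yellow). C5orf58 stands at 8.93 and 5.76, while FGF18 has the widest error bars of DKO against S2KO in the row.

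The rises included genes of the extracellular matrix and of adhesion. COL1A2, the second chain of type I collagen, had 125 and 104 CPM in DKO, against 0.579 and 0.342 in S2KO (log2 7.95 ± 0.33, edgeR adjusted p = 0.000617). S1KO held a lower level, 7.56 and 6.70 CPM, beside 0.430 and 0.346 in EV, and the step with silencer 2 gone was the larger by log2 3.76 ± 0.39 (adjusted p = 0.0104). Its partner chain COL1A1 reached 3.53 and 2.16 CPM in DKO and 0.425 and 0.552 in S2KO (log2 2.54 ± 0.38, adjusted p = 0.0214).

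In the list of collagens and matrix genes, 4 of 23 tested genes rose and 0 fell, where 1.61% of all tested genes rose, with a list median of 0.24 beside -0.0031 over all genes. The list had 1 call without DKO replicate 1 and 1 without DKO replicate 2. COL4A2, a basement membrane collagen chain, had 16.98 and 14.8 CPM in DKO and 2.27 and 2.89 in S2KO (log2 2.62 ± 0.22, edgeR adjusted p = 0.0029). S1KO was at 8.88 and 8.70 CPM and EV at 6.08 and 6.31, so S2KO was below and DKO above both. The laminin chain LAMB1 had 53.4 and 47.5 CPM in DKO and 4.88 and 8.58 in S2KO, with EV at 28.2 and 65.2, so S2KO was again the low group. COL5A2 (log2 3.19 ± 0.35) and COL18A1 (1.17 ± 0.20) were the other two. Adhesion and matrix receptors gave 3 rises and 0 falls among 31 tested, and 1 rise without DKO replicate 1, DKO replicate 2 or S2KO replicate 2. CD9, a tetraspanin of platelets and many epithelia, had 4.86 and 4.23 CPM in DKO and 0.167 and 0.118 in S2KO (log2 4.98 ± 0.37, adjusted p = 0.00173). The integrin subunit ITGB5 was at 70.5 and 61.4 CPM in DKO against 27.4 and 23.7 in S2KO (1.37 ± 0.17, adjusted p = 0.0127), and CD44, the hyaluronan receptor, at 1.35 and 1.55 against 0.1802 and 0.263 (2.70 ± 0.43, 0.0252). COL1A2, COL4A2 and CD9 kept their calls with any 1 of the 4 libraries left out. COL1A1, LAMB1 and CD44 lost theirs with each library left out (highest adjusted p 0.181, 0.197 and 0.193), and COL5A2, COL18A1 and ITGB5 with 2 or 3 of them (0.0722, 0.246 and 0.142).

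The other large rises fall into 2 kinds by what S1KO did. In the first, S1KO was high as well, on the DKO side of the log-scale midpoint between DKO and S2KO. SCG3, a granin of neuroendocrine secretory granules, had 201 and 176 CPM in DKO and 7.22 and 7.79 in S2KO (log2 4.65 ± 0.19, edgeR adjusted p = 0.000609), and still more in S1KO, 572 and 577 CPM, beside 3.12 and 2.48 in EV (7.68 ± 0.21). The step was smaller with silencer 2 gone (difference in log2 change -3.03 ± 0.23, adjusted p = 0.0048). COBLL1, which binds actin, had 20.2 and 20.8 CPM in DKO against 0.875 and 0.394 in S2KO, and 17.9 and 13.2 in S1KO against 0.126 and 0.251 in EV. The zinc finger gene ZNF302 had 9.84 and 11.2 CPM in DKO and 0.2703 and 0.289 in S2KO, with 6.69 and 11.2 in S1KO and 0.670 and 0.358 in EV. ABCG2, a drug efflux pump of stem cells, was at 11.5 and 10.1 CPM in DKO and 0.167 and 0.552 in S2KO, and at 3.58 and 2.97 in S1KO and 0.0253 and 0.0119 in EV. PTPRZ1, a receptor phosphatase of neural cells, and C11orf21, whose exons overlap TSPAN32 on the opposite strand, belonged here too (log2 4.80 ± 0.50 and 4.82 ± 0.60).

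In the second kind S1KO and EV both lay on the S2KO side of that midpoint. FOXR2, an X-linked forkhead factor, had 8.06 and 10.7 CPM in DKO and 0.193 and 0.145 in S2KO (log2 5.78 ± 0.42, edgeR adjusted p = 0.0017), while S1KO had 0.359 and 0.458 and EV 0.316 and 0.191; the 2 steps differed by log2 5.10 ± 0.54 (adjusted p = 0.011). MALT1, the paracaspase of NF-kB signalling in lymphocytes, had 61.4 and 70.0 CPM in DKO and 1.63 and 3.39 in S2KO, with S1KO between at 10.8 and 10.5 and EV at 0.531 and 1.79. SH3TC2, an endosomal protein of Schwann cells, was at 28.8 and 22.3 CPM in DKO and 1.49 and 0.434 in S2KO. PDE4D, a cAMP phosphodiesterase, was at 10.2 and 9.58 CPM against 0 and 0.184. CNTNAP3B, of a neuronal cell surface family, had 5.31 and 5.98 CPM in DKO and 0.0257 and 0.118 in S2KO; it has a near-identical copy, so the level is best read for both together, at 5.58 and 6.30 against 0.155 and 0.394 CPM. C4orf54 and ZNF662, with log2 5.61 ± 0.72 and 4.66 ± 0.85, were the others, and ZNF662 is uncertain because it shares exon sequence with KRBOX1 on the same strand. S1KO against EV was also positive in the genes of this kind. The log2 changes there were 0.68 for FOXR2, 1.60 for SH3TC2, 2.55 for CNTNAP3B and 3.19 for MALT1. They were 3.66 for PDE4D, 3.73 for C4orf54 and 5.77 for ZNF662. Only MALT1 passed that test (edgeR adjusted p = 0.037), and only FOXR2 passed the test of whether the 2 steps differed. Of the 15 largest rises, 7 kept their calls with any 1 library left out (C5orf58, COL1A2, CNTNAP3B, FOXR2, ZNF302, COBLL1 and CD9). The other 8, PDE4D, C4orf54, ABCG2, C11orf21, PTPRZ1, SH3TC2, MALT1 and ZNF662, lost theirs without 1 DKO library or more, with highest adjusted p of 0.0538 to 0.232.

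**Figure D2:**
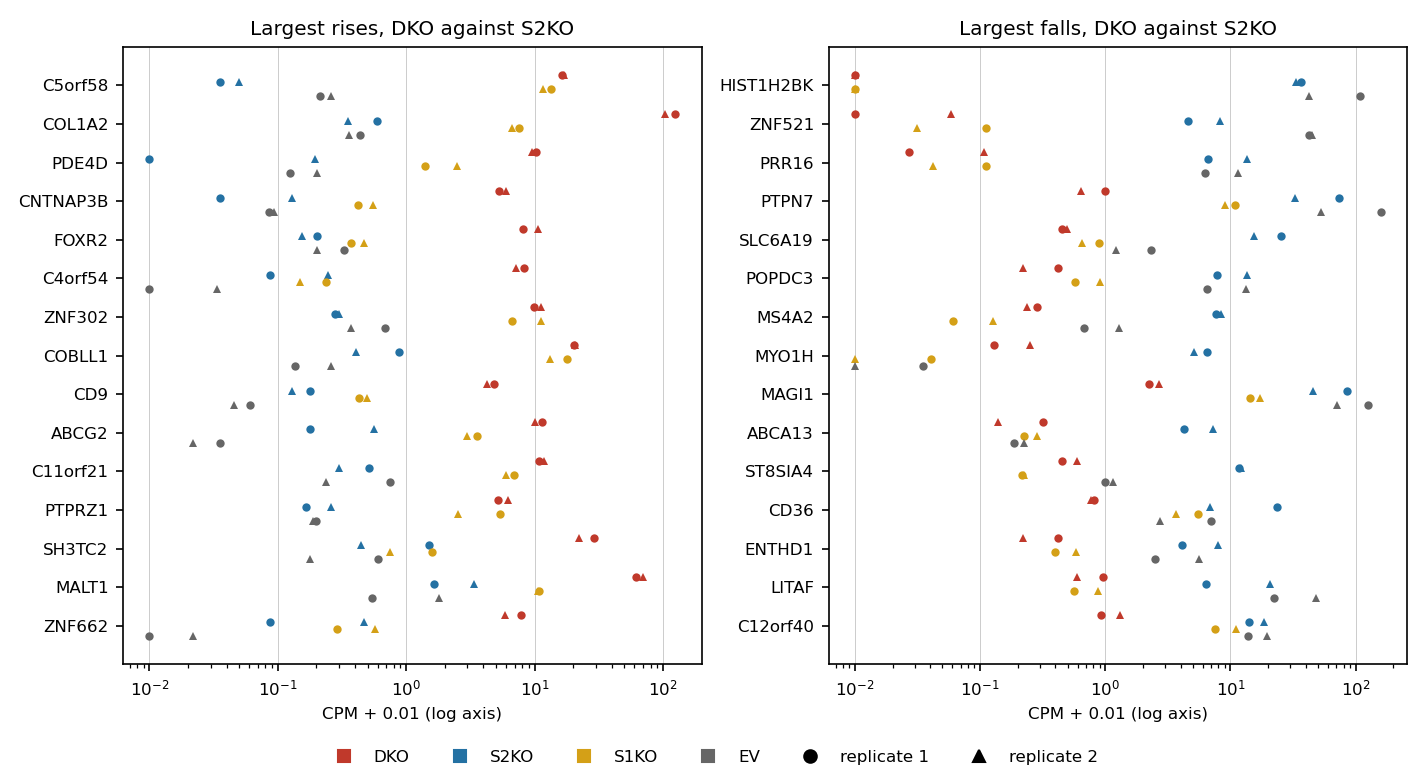
CPM plus 0.01 on a log axis for the 15 largest rises (left) and the 15 largest falls (right) of DKO against S2KO, with 1 point per library in DKO, S2KO, S1KO and EV. In each gene both DKO points lie to one side of both S2KO points, and S1KO lies close to DKO in genes such as C5orf58 and ZNF521 and far from it in FOXR2 and C12orf40.

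Among the falls, several genes were nearly silent in both DKO libraries. ZNF521, a zinc finger factor of blood progenitors, had 0 and 0.0485 CPM in DKO (0 and 3 counts), against 4.54 and 8.31 CPM in S2KO (353 and 632 counts), a ratio of 0.00389 with a counting interval of 0.000801 to 0.0114. S1KO was also low, at 0.102 and 0.0213 CPM, beside 42.3 and 44.7 in EV. PRR16 followed the same course at 0.0171 and 0.0969 CPM in DKO and 6.63 and 13.6 in S2KO, with 0.102 and 0.0319 in S1KO and 6.22 and 11.5 in EV (log2 -7.41 ± 0.87 and -7.00 ± 0.83). PTPN7, a tyrosine phosphatase of blood cells, had 0.993 and 0.630 CPM in DKO and 74.0 and 32.8 in S2KO, with S1KO at 10.8 and 9.05 and EV at 159 and 52.9. LITAF, an endosomal membrane protein, POPDC3, a cAMP-binding membrane protein, and ENTHD1 also had low values in both DKO and S1KO. MAGI1, a scaffold of cell junctions, had 2.23 and 2.68 CPM in DKO and 85.1 and 46.0 in S2KO (log2 -4.74 ± 0.43, edgeR adjusted p = 0.00369).

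In a second set of falls S2KO stood above the other 3 groups. ST8SIA4, a polysialic acid transferase, had 0.445 and 0.582 CPM in DKO and 11.7 and 12.1 in S2KO (log2 -4.53 ± 0.29, edgeR adjusted p = 0.00167), while S1KO had 0.205 and 0.213 and EV 0.987 and 1.15. MS4A2, the beta chain of the high-affinity IgE receptor, had 0.274 and 0.226 CPM in DKO and 7.70 and 8.36 in S2KO, against at most 1.28 in S1KO and EV. SLC6A19, a neutral amino acid transporter of gut and kidney, had 0.445 and 0.485 CPM in DKO and 25.4 and 15.5 in S2KO. ABCA13 (0.308 and 0.129 CPM in DKO, 4.26 and 7.28 in S2KO) and the class I myosin MYO1H (0.120 and 0.242 in DKO, 6.48 and 5.10 in S2KO) had the same form. In these 5 genes S1KO and EV both lay on the DKO side of the midpoint between DKO and S2KO. DKO was instead below the other 3 groups for CD36 and C12orf40. CD36, a fatty acid and scavenger receptor, had 0.804 and 0.759 CPM in DKO and 23.5 and 6.87 in S2KO, and C12orf40 0.907 and 1.29 against 14.2 and 18.4. With 1 library left out, ST8SIA4 was the only one of the 15 largest falls to keep its call each time. The other 14, HIST1H2BK among them, lost theirs without DKO replicate 1 or 2 or both, with highest adjusted p of 0.0545 to 0.296.

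The largest fitted fall was HIST1H2BK, which codes for histone H2B. It had 0 counts in both DKO libraries and in both S1KO libraries, 2850 and 2551 in S2KO, and 8619 and 3520 in EV. Taking 3 counts over both DKO libraries as the floor, it was at least 1409-fold lower in DKO than in S2KO. Its coding sequence is close to that of other H2B genes, and pseudoalignment can pass reads between such copies. Summed over 17 H2B genes the level was 1186 and 1398 CPM in DKO and 1723 and 1357 in S2KO, which overlap. HIST1H3D was the other histone gene called, at 8.46 and 9.94 CPM in DKO and 29.4 and 36.4 in S2KO (log2 -1.84 ± 0.29, edgeR adjusted p = 0.0265, lost with each library left out, to 0.247). Of the 21 replication-dependent histone genes tested, 2 fell, beside 1.36% of all tested genes. Of the same 21, 20 had a negative log2 change, with a median of -0.39.

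The transcripts of the regulators named in the study's title did not pass the test. EZH2 had 160 and 182 CPM in DKO and 224 and 235 in S2KO (log2 -0.42 ± 0.17, edgeR adjusted p = 0.272), and none of 11 tested genes of Polycomb repressive complex 2 passed. REST had 84.2 and 77.3 CPM in DKO and 81.4 and 78.3 in S2KO (0.02 ± 0.14, adjusted p = 0.969). Among REST and its corepressors 1 of 13 fell, beside 1.36% of all tested genes. It was RCOR1 (CoREST), the scaffold that links REST to the demethylase KDM1A. RCOR1 had 5.15 and 4.70 CPM in DKO and 18.98 and 25.1 in S2KO (log2 -2.16 ± 0.32, edgeR adjusted p = 0.021). S1KO was at 17.7 and 29.2 and EV at 12.6 and 17.99, so DKO stood alone, and the 2 steps differed by log2 -2.78 ± 0.44 (adjusted p = 0.0459). Its call was lost without DKO replicate 1, DKO replicate 2 or S2KO replicate 2 (highest 0.211).

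Genes that these repressors hold down in other cells showed single members rather than whole groups. SCG3 was the 1 call among 20 tested neuronal REST targets, whose list median was 0.44. Of 18 tested developmental factors that Polycomb represses, 2 rose, beside 1.61% of all tested genes: TBX3, a T-box factor of limb and breast, with 5.63 and 4.39 CPM in DKO and 0.335 and 0.0789 in S2KO (log2 4.59 ± 0.70, edgeR adjusted p = 0.023), and TBX1, with 30.5 and 22.3 against 11.8 and 9.86 (1.29 ± 0.21, 0.0294). The median of that list was -0.20. HOXC5 was the 1 of 23 HOX genes called, on 11 and 21 counts in DKO and 1 and 2 in S2KO, a ratio of 13.6 with a counting interval of 4.26 to 69.6, and it shares exons with HOXC4 and HOXC6. HOXC5 had 0.188 and 0.339 CPM in DKO, 0.215 and 0.319 in S1KO and 0.342 and 0.227 in EV. S2KO was therefore the low group for this gene. TBX1 and HOXC5 lost their calls with each library left out (highest 0.244 and 0.263) and TBX3 without either DKO library (0.154). Signalling lists had few calls as well. SPRY1, a feedback inhibitor of fibroblast growth factor receptors, was the 1 call of 20 in FGF signalling, at 3.18 and 2.58 CPM in DKO and 0.2703 and 0.329 in S2KO (3.26 ± 0.39, adjusted p = 0.00981; lost with each library left out, to 0.0923).

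In the Wnt and Notch list 2 of 28 rose, where 1.61% of all tested genes rose. The receptor FZD3 had 9.67 and 10.1 CPM in DKO and 0.463 and 0.789 in S2KO (log2 3.98 ± 0.41, edgeR adjusted p = 0.00624). The Notch target HEY2 had 33 and 28 counts against 1 and 1, a ratio of 39.0 with a counting interval of 10.3 to 329. In the list of TGF-beta and BMP signalling 1 of 30 fell, where 1.36% of all tested genes fell. It was the receptor TGFBR2, at 0.0342 and 0.0646 CPM in DKO and 0.566 and 0.894 in S2KO (log2 -3.83 ± 0.55, edgeR adjusted p = 0.0195). TGFBR2 was at 0.0410 and 0.106 CPM in S1KO and 16.98 and 15.1 in EV (log2 -7.74 ± 0.55), so EV stood far above the 3 excised groups. The call of FZD3 was lost without either DKO library, that of HEY2 with each library left out, and that of TGFBR2 without either DKO library or S2KO replicate 2, with highest adjusted p of 0.0608, 0.0823 and 0.197.

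Lists of blood cell identity gave few calls. Of 36 tested erythroid genes 0 were called, with a median log2 change of 0.0014, and of 23 blood transcription factors 0. The 10 globin genes had no call either, yet 9 had separate groups and 9 a positive log2 change, with a median of 1.32, while 50.9% of all tested genes had separate groups. The median was 2.24 without S2KO replicate 1 and 0.64 without S2KO replicate 2. Their summed level was 16220 and 19271 CPM in DKO and 11629 and 4985 in S2KO, and 15470 and 8695 in S1KO and 4841 and 1806 in EV. The embryonic globin HBE1 had 5967 and 6694 CPM in DKO and 2670 and 1519 in S2KO (log2 1.60 ± 0.39, edgeR adjusted p = 0.0933), with 4608 and 2975 in S1KO and 97.0 and 169 in EV. In S2KO, S1KO and EV the summed globin level was lower in replicate 2 than in replicate 1. In the list of megakaryocyte genes 1 of 13 was called, beside 2.96% of all tested genes. It was THBS1, a platelet adhesive glycoprotein (8.15 and 10.1 CPM in DKO, 0.708 and 0.434 in S2KO). In bulk RNA fewer cells of a type and less RNA per cell cannot be told apart.

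Markers of other cell types moved in part with these changes. Of 14 tested fibroblast and epithelial genes, 2 rose, COL1A1 and COL1A2, beside 1.61% of all tested genes. The list summed to 779 to 819 CPM in DKO and 570 to 662 in S2KO. COL3A1 and DCN, which fibroblasts make with type I collagen, stayed at 0.302 to 1.49 CPM. Of 14 tested myeloid genes 2 rose: CD68, a lysosomal glycoprotein (54.5 and 48.2 CPM in DKO, 10.3 and 12.3 in S2KO), and LYZ, lysozyme (26.9 and 20.8 against 10.8 and 10.8). LYZ was higher still in S1KO (58.3 and 45.4 CPM) and in EV (38.8 and 33.6), so S2KO was the low group. The myeloid list summed to 89.9 to 109 CPM in DKO and 37.8 to 59.7 in S2KO, but 7 of its 14 genes were above 0, and without CD68 and LYZ the sums overlapped, at 27.4 and 20.9 CPM in DKO and 16.8 and 36.6 in S2KO. In all of these libraries MPO and CD14 were at or below 0.302 CPM. None of 10 lymphoid genes passed, and they summed to 73.0 to 82.2 CPM in DKO and 104 to 168 in S2KO. The part of other cells in the results was not tested. Calls of THBS1, CD68 and LYZ were lost with each library left out (0.149, 0.144 and 0.295 at most).

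The groups for growth and stress showed little that passed. No gene was called among 30 mitosis, 30 DNA replication, 21 arrest and p53 target, 27 apoptosis, 20 endoplasmic reticulum chaperone, 18 heat shock, 30 cholesterol, 57 ribosomal protein or 26 ribosome biogenesis genes, and the mitosis median was 0.0018. ATF4 targets, which amino acid shortage and endoplasmic reticulum stress switch on, had the lowest median of these lists, -1.24, with 0 of 32 called and none above 0. Their summed CPM was 3776 and 4001 in DKO, against 4382 in S2KO replicate 1 and 11994 in S2KO replicate 2. The asparagine synthetase gene ASNS shows it: 266 and 308 CPM in DKO, 290 and 1470 in S2KO. The same high value in replicate 2 was present in S1KO (10745 CPM) and EV (10794 CPM). The list median was -0.15 in a fit that gave replicate 2 of S2KO, S1KO and EV its own term, a fit chosen after seeing the data.

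Interferon-stimulated genes leaned upward, with a median of 0.69 and 23 of 29 above 0, but 1 call, where 1.61% of all tested genes rose. With the separate term for replicate 2 of S2KO, S1KO and EV, a fit chosen after seeing the data, 11 of the 29 rose. Over all 21285 tested genes that fit called 1696 up and 1478 down, against 342 and 289 without the term. The same fit called 13 of 21 histone genes down, 8 of 30 interleukin, chemokine and receptor genes up (0 without the term) and 9 of 35 nuclear oxidative phosphorylation genes down (0 without it). Other lists gained calls as well, among them collagens and matrix genes (8 up and 1 down of 23) and blood transcription factors (1 up and 6 down of 23). Mitosis had 1 call among 30. IFITM3, which blocks virus entry at membranes, had 49.9 and 39.5 CPM in DKO and 6.33 and 4.90 in S2KO (log2 2.99 ± 0.27, edgeR adjusted p = 0.00369), kept with any library left out. S1KO was at 17.95 and 16.97 and EV at 19.2 and 12.9, so S2KO was below and DKO above both, and the steps differed by log2 2.87 ± 0.36 (adjusted p = 0.0217). IFIT1, IFIT2 and IFIT3 of the antiviral IFIT family had log2 2.56, 2.93 and 2.06 with adjusted p of 0.0759, 0.0659 and 0.0847. PSMB9, an immunoproteasome subunit, was the 1 of 11 antigen presentation genes to rise (1.88 and 1.71 CPM in DKO, 0.232 and 0.473 in S2KO). In the list of NRF2 targets GSR, glutathione reductase, fell (18.6 and 15.3 CPM in DKO, 61.4 and 54.8 in S2KO; -1.78 ± 0.25) and the exporter ABCC3 rose (1.03 and 1.07 against 0.245 and 0.276). FOSB of the immediate early genes, MT-CO2 of the mitochondrial genome and MAGEC2 of the cancer-testis genes rose, and SSX2 of the last list fell, with log2 2.52, 0.93, 1.12 and -1.22. All of these but IFITM3 lost their calls without DKO replicate 1 or 2 (highest adjusted p 0.126 to 0.304).

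A subset of the short noncoding RNAs fell, and in 44 of the 46 called DKO stood apart from the other 3 groups. Of 546 tested small nuclear, small nucleolar, small Cajal body, micro and miscellaneous RNA genes, 46 fell and 0 rose, with a median log2 change over the 546 of 0.025, against 294 rises and 159 falls among 14676 protein-coding genes. The spliceosomal RNA gene RNU4-2 had 0.0513 and 0.129 CPM in DKO and 8.999 and 11.4 in S2KO (log2 -6.78 ± 0.42, edgeR adjusted p = 0.00167), with 5.93 and 5.15 in S1KO and 15.2 and 17.1 in EV. RNU4-1 (-5.83 ± 0.32), RNY3, a Y RNA (-4.52 ± 0.39), and RNU1-1 (-2.90 ± 0.21) had the same order of groups, and these 4 kept their calls with any library left out. RNU1-1 is one of several near-identical copies. In 14 of the 46 both DKO libraries had 0 counts while all 6 others had counts. The longer fragments of the DKO libraries stand beside this result, and their part in it was not tested. Among genes with a transcript of at least 300 bases, a limit chosen after seeing the data, 323 rose and 229 fell.

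**Figure D3:**
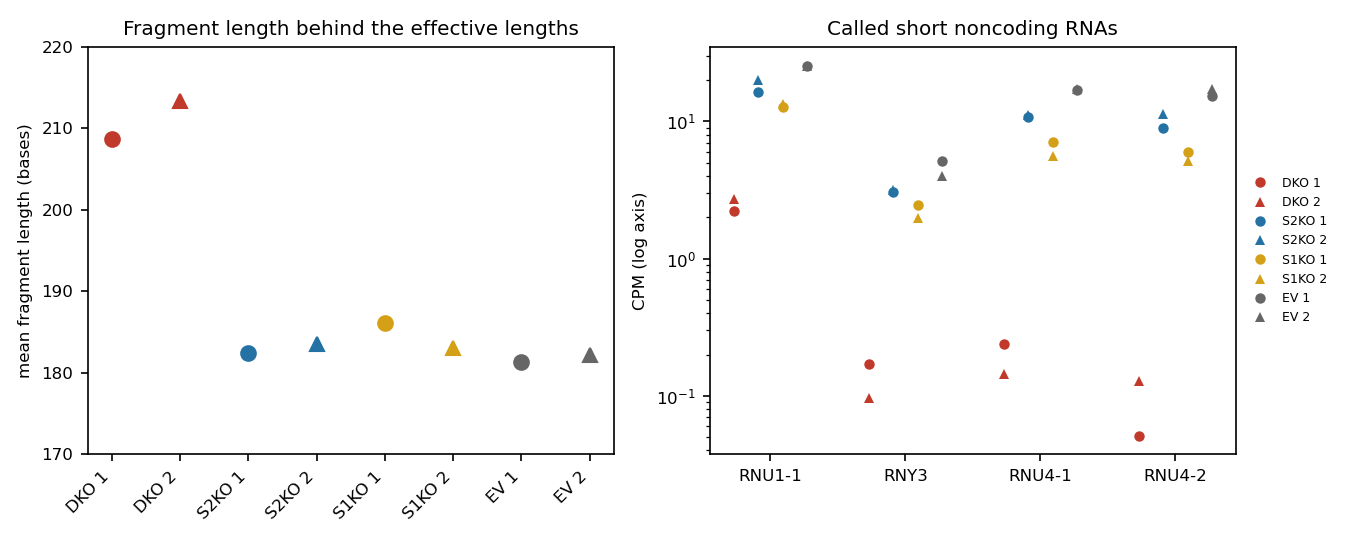
Left, mean fragment length in bases for each library, as implied by the effective lengths in the deposited tables; right, CPM on a log axis of 4 short noncoding RNAs called in DKO against S2KO. The DKO libraries stand at 209 and 213 bases, the other 6 at 181 to 186, and the same 2 libraries are lowest for each RNA.

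The same loss of silencer 1 with silencer 2 present, S1KO against EV, shares no library with DKO against S2KO. It gave 520 rises (2.44%) and 261 falls (1.23%), together 3.67%, and 40.4% of all tested genes had CPM that did not overlap between S1KO and EV. The rises had 152 genes in common, which is 44.4% of the DKO rises and 29.2% of the S1KO rises. For falls it was 97 genes, 33.6% of the DKO falls and 37.2% of the S1KO falls. Genes called in opposite directions numbered 3 and 4. Of the 342 DKO rises, 298 (87.1%) had a positive log2 change in S1KO against EV, as did 50.9% of all tested genes, with a median of 1.80 there and 2.85 in DKO against S2KO. Of the 289 falls, 238 (82.4%) were negative there, beside 49.0% of all, with medians of -0.73 and -2.63.

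The test of the difference between the 2 steps called 222 genes (1.04%), 68 with a more positive and 154 with a more negative change when silencer 2 was gone. Of the DKO rises 48 were among those called for a difference, and of the DKO falls 65. The difference contains DKO against S2KO itself, so this overlap is not independent of the calls and was not read as support for them. Set against the midpoint between DKO and S2KO on a log scale, 131 of the 342 rises (38.3%) had S1KO on the DKO side and EV on the S2KO side, while 25.2% of all tested genes did. In 167 (48.8%) S1KO and EV both lay on the S2KO side, beside 41.8% of all genes. For 39 rises (11.4%) and 38 falls (13.1%) both lay on the DKO side, so that S2KO was the group apart, beside 19.9% of all genes. Of the 289 falls 110 (38.1%) had S1KO on the DKO side and EV on the S2KO side, and in 138 (47.8%) DKO was apart from the other 3. Of the protein-coding falls 82 of 159 (51.6%) had S1KO with DKO and EV with S2KO. All 4 groups entered one fit, so the comparisons share their estimate of spread. The parts of the excision, the line and the library in the differences between the steps were not tested.

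**Figure D4:**
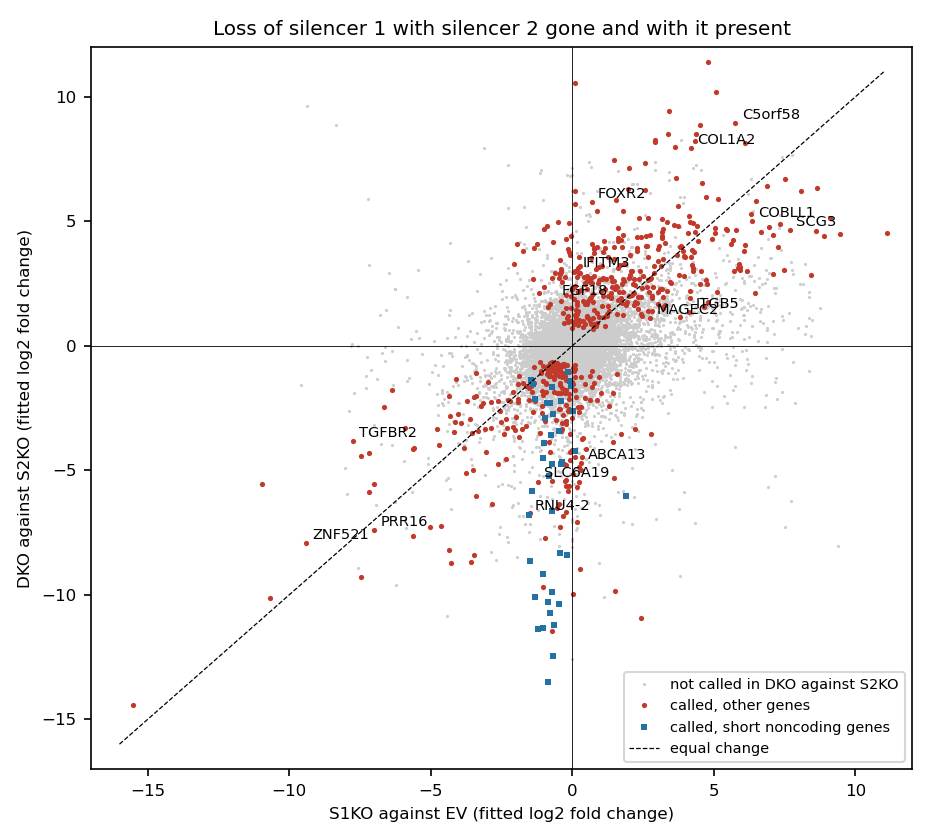
Fitted log2 fold change of DKO against S2KO (vertical) and of S1KO against EV (horizontal) for the 21285 tested genes; red points are genes called in DKO against S2KO, blue squares the 46 called short noncoding genes, and the dashed line marks equal change. Called genes lie mainly in the upper right and lower left, while FOXR2, ABCA13 and the short RNAs lie near the vertical axis.

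A last pattern ran along chromosomes. Expressed protein-coding genes, averaging 2 CPM or more, were divided into 216 blocks of 43 to 53 neighbours, 10745 genes in all. The block medians of the DKO against S2KO log2 change were narrow, with quartiles of -0.0611 and 0.0661, but 8 blocks lay below -0.3 and 3 above 0.3. The 2 blocks from ZNF596 to KAT6A on the chromosome 8 short arm had medians of -0.59 and -0.75, with 46 and 45 of 50 genes each below 0, and S1KO against EV gave -0.53 and -0.49. On chromosome 1 the 8 blocks from NOC2L to C1orf123 lay between -0.33 and -0.24, and between -0.39 and -0.25 in S1KO against EV. The block from TMEM241 to CXXC1 on chromosome 18 had -0.43 and -0.35. The first 2 blocks of chromosome 11, from BET1L to RNF141, were higher, 0.51 and 0.30, with 0.33 and 0.45 in S1KO against EV. The last 2 of chromosome 6, from STX7 to PDCD2, were low in DKO against S2KO alone (-0.33 and -0.38, against 0.20 and 0.08), and the first of chromosome 5, CCDC127 to LIFR, was at 0.38, against 0.20.

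The 11 shifts had the same sign within each replicate number; for example, the chromosome 8 blocks had -0.59 and -0.56 between the replicates numbered 1 and -0.53 and -0.66 between those numbered 2, on a log2(CPM + 1) scale. Of the called genes in blocks, 17 of 181 rises and 36 of 130 falls lay in the 11 shifted blocks, which hold 5.05% of the genes. The blocks were picked by the same log2 changes that the calls rest on. These shares are therefore not independent of that choice and were not read as support for the shifts. ZNF521, GSR, FZD3, SLC6A19, IFITM3 and C11orf21 are among the genes named above that lie in the shifted blocks. FZD3 rose in a block with a median of -0.75, and SLC6A19 fell in a block with a median of 0.38. The others listed moved in the direction of their block. The blocks were examined after earlier results of these data were known, so no test is attached, DNA copy number was not measured in these libraries, and its part was not tested.

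**Figure D5:**
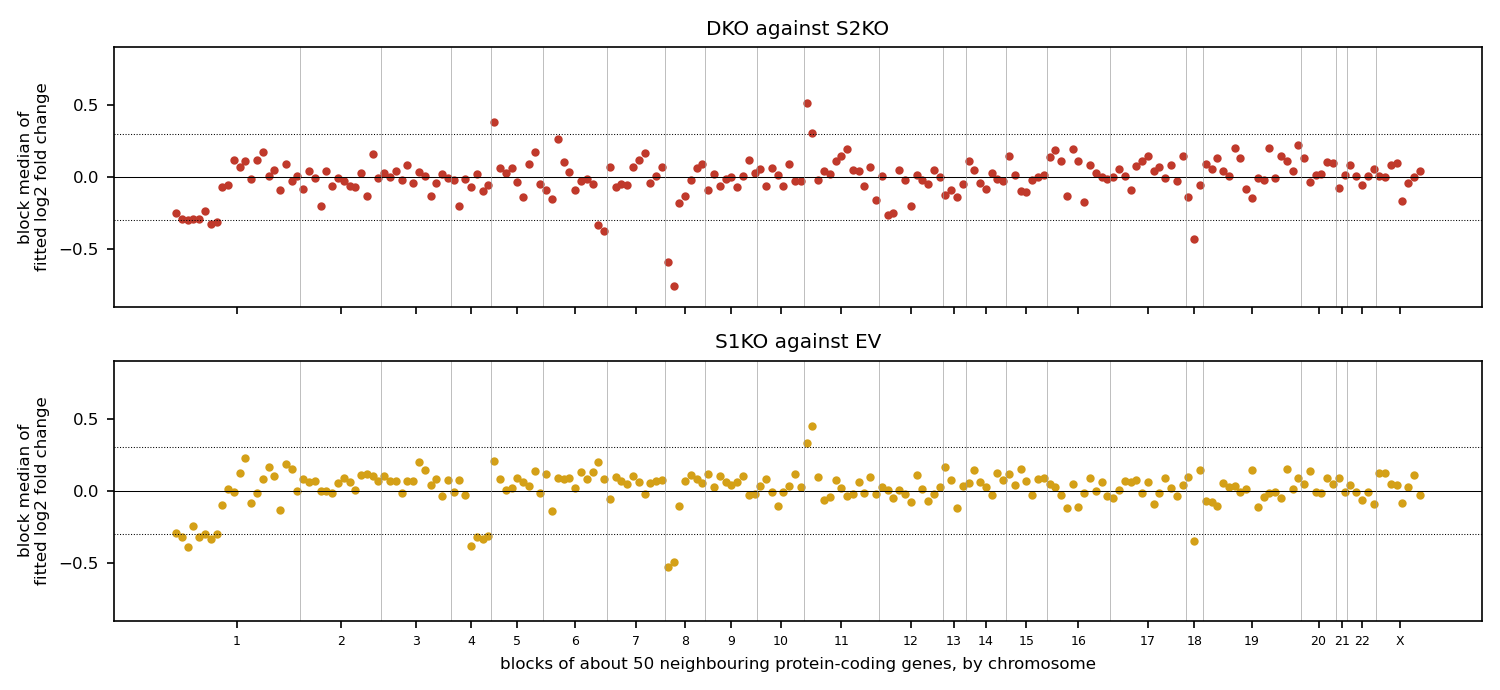
Median fitted log2 fold change of blocks of about 50 neighbouring protein-coding genes in chromosome order, for DKO against S2KO (top) and S1KO against EV (bottom); dotted lines mark 0.3 and -0.3. Runs of low blocks at the start of chromosomes 1 and 8 and high blocks at the start of chromosome 11 appear in both panels, and those at the end of chromosome 6 in the upper panel alone.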

How the data were processed

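The authors made stranded total RNA libraries with ribosomal RNA removed, per the labels' protocols, and deposited a kallisto table per excision library with estimated counts and TPM per transcript, per the file headers. The submitters' processing notes name Trimmomatic 0.38, kallisto 0.44.0 and hg19; the annotation release is not given in the sources used here. The drug treatment libraries were not used here. The deposited estimated counts were added up by gene, then rounded to whole numbers; deposited TPM served for length-scaled counts alone. Of 215170 transcripts 182238 (84.7%) matched GENCODE 29, giving 53153 genes with 87.8% to 90.4% of the counts. GENCODE 29 is on GRCh38, so it gave names, types and gene order, and no coordinates.

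One edgeR 4.0.16 fit (R 4.3.3; filterByExpr, TMM factors 0.955 to 1.05, robust quasi-likelihood) held all 8 excision libraries with 1 mean per group, 4 residual degrees of freedom and a biological coefficient of variation of 0.323. SE is the absolute log2 change over the square root of F. Counting intervals are exact at 95% and cover counting error alone. Code was tested on simulated data.

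The text names the 15 top rises and 15 top falls by fitted change (called, protein-coding, averaging 2 CPM or more, no overlap of DKO and S2KO), FGF18, EZH2, REST, the 5q35.1 list, and up to 4 called members with the lowest p of each of 41 lists. Other genes mentioned (globins, ASNS, IFIT genes, DOCK2) were chosen after their values were seen. The comparison, rules and lists were chosen with earlier results of these data known. Alternatives were DESeq2 1.42.0, RLE factors, no filter beyond 1 count, 2 groups alone, a replicate block, length-scaled counts and each library left out; where that leaves 1 library it is assumed to vary like the other groups. Replicate numbers did not pair DKO with S2KO: their deviations correlated at -0.18.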

Additional observations from a re-analysis of the deposited data

Results flagged for a closer look

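The change in DKO against S2KO differed from that in S1KO against EV for 222 genes by the edgeR test of the difference (adjusted p under 0.05). The DKO libraries had longer fragments and closer replicates than the other libraries, and the labels do not say whether a line is a single clone. The parts of the excision, the line and the library in these differences were not tested. The called genes named above were chosen by DKO against S2KO, which enters this difference, so they do not stand for all tested genes. Among them, the difference in log2 change was positive for C5orf58 (3.17), COL1A2 (3.76), FOXR2 (5.10), IFITM3 (2.87) and COL4A2 (2.12). It was negative for SCG3 (-3.03), ITGB5 (-2.77) and MAGEC2 (-1.63), which rose in both comparisons and rose more in S1KO. MAGEC2, an X-linked cancer-testis antigen, had 188 and 196 CPM in DKO and 91.0 and 85.9 in S2KO, and 96.8 and 92.4 in S1KO and 14.7 and 13.4 in EV. ITGB5 had 70.5 and 61.4 CPM in DKO and 27.4 and 23.7 in S2KO, and 73.2 and 91.3 in S1KO and 4.74 and 4.6 in EV, so S2KO was already above EV for both genes. Negative differences in genes that fell in DKO were those of SLC6A19 (-4.24), ABCA13 (-5.04), C12orf40 (-3.04) and RCOR1 (-2.78). The short RNAs RNU1-1 (-1.94), RNY3 (-3.48), RNU4-1 (-4.40) and RNU4-2 (-5.24) were also called, beside the longer fragments of the DKO libraries, whose part was not tested.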

How the results depend on the processing

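The 631 genes called in DKO against S2KO stayed within 1.5 times that count with RLE factors (633), no filter beyond 1 count (767), length-scaled counts (537) and genes with a transcript of at least 300 bases (552). The count was 312 with the 2 groups alone, 1286 with the replicate block, 1576 with DESeq2, and 101 to 302 with 1 library left out. S1KO against EV (781 genes) gave 300, 1348 and 1658 in those 3 fits and 249 to 446 with 1 library left out. The difference between the steps (222 genes) gave 376 with the replicate block, 731 with DESeq2 and 33 to 155 with 1 library left out, and cannot be had from 2 groups alone. Replicate numbers did not pair DKO with S2KO (correlation -0.18), and the crossed pairing, added after seeing the data, called 1871. A block for replicate 2 of EV, S1KO and S2KO only, also added then, called 3174, 4158 and 1595 genes for the 3 comparisons. The causes of these changes in count were not tested. No called gene named by the rule changed sign under the alternatives checked by gene. The crossed pairing, and fits that gave a gene no adjusted p, were not part of that check. Of the uncalled ones, log2 changes that did were those of RPL26L1 (-0.26 to 0.49 with a library left out, -0.19 with the block of 3 groups), REST (-0.048 to 0.075; -0.00101 with DESeq2), ATP6V0E1 (-0.31 to 0.20), KCNMB1 (-0.12 to 0.62), CREBRF (-1.19 to 0.34; 0.17 with the block of 3 groups), UBTD2 (-0.48 to 0.50; 0.071 with the replicate block and 0.54 with the block of 3 groups) and NEURL1B (-0.16 to 1.13; -0.013 with the block of 3 groups). Calls were gained by FBXW11 (adjusted p 0.0155 with the replicate block, 0.00603 with DESeq2, 0.000852 with the block of 3 groups) and LCP2 (0.0252 with DESeq2, 0.00159 with the block of 3 groups). Of 63 called genes named by the rule, 15 kept their call without each of the 4 libraries and 48 did not. At the depth of FGF18, 2 to 16 counts a library in DKO and S2KO, the counting interval of its ratio ran over 1.83 to 8.17.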
